A study of Mus musculus with 28 samples.

Results

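Replication-dependent histone genes encode the H1, H2A, H2B, H3 and H4 proteins of the mouse Hist1 to Hist4 gene clusters, and 41 of the 69 genes of this kind, among 55487 genes in the files, are described here in 28 RNA-seq libraries of mouse macrophages. The genes were taken by symbol (names that begin with Hist1h, Hist2h, Hist3h or Hist4h), and 1 further gene was left out as a pseudogene. Members were then chosen by their measured level: a gene needed at least 1 TPM in at least 4 of the 28 libraries, where TPM is a transcript abundance corrected for length and brought to the same sum in every library. The members were 3 of 6 H1 genes, 10 of 20 H2A genes, 10 of 18 H2B genes, 8 of 12 H3 genes and 10 of 13 H4 genes. In the mm10 build, which the submitters' processing notes name, 30 of 56 genes of the Hist1 cluster on chromosome 13 passed, as did 9 of 10 of the Hist2 cluster on chromosome 3 and both genes of the Hist3 cluster on chromosome 11. The only gene of the Hist4 cluster, on chromosome 6, did not.

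All libraries came from wild-type bone marrow-derived macrophages, which are grown in culture from bone marrow cells. The 7 groups held 4 libraries each. Non-polarized macrophages (M0) were kept for 48 h without an added cytokine. The other groups received IFN-γ or IL-10, each at 50 ng/mL, for 48 h, and under each cytokine the macrophages were sorted as Treg-phagocytic, Tconv-phagocytic or non-phagocytic, that is, as having taken up apoptotic regulatory T cells, apoptotic conventional CD4 T cells or neither. Per the series' design text the T cells were killed with ATP/NAD+ and stained with a fluorescent antibody to CD4. The M0 labels give no uptake status, so a comparison with M0 cannot tell the cytokine apart from sorting or co-culture. The dye in the title and in the library name disagree for all 8 Treg-phagocytic libraries; the title was used to name libraries. No label says whether the 4 libraries of a group came from separate animals or cultures, so p-values measure the spread between these libraries, which may be technical. In bulk RNA, fewer cells with a transcript and less of it per cell cannot be told apart.

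Histone proteins package DNA into nucleosomes: H2A, H2B, H3 and H4 form the core, and H1 binds the linker between cores. The genes described here are known for a burst of mRNA in S phase, when new DNA must be packaged. Their mRNAs usually lack introns and a poly(A) tail and end just after a conserved RNA stem-loop, which the protein Slbp binds and the U7 snRNP (with Lsm10 and Lsm11) helps to cut. Some of these genes can also give longer, polyadenylated mRNAs, for example in cells that have left the cell cycle. The libraries were labelled as poly(A) RNA, so mRNA that ends at the stem-loop is poorly represented, and the values below are not a measure of total histone mRNA.

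The stem-loop was found in the annotated transcripts of 28 of the 41 members, searched as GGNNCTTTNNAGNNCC with all 6 stem pairs complementary, on the transcript strand (GENCODE vM21). Over all 55450 genes with a transcript sequence, 54 (0.0974%) held it, and 11 of those were not histone genes. The searched letters and the stem pairing set most of the stem and loop, so the likeness of these sites is not a result. The sites below, in 5′ to 3′ order with the stem and loop in capitals, come from members of different classes and from members that behaved differently between groups.
Hist1h1c: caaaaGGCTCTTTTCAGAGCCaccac
Hist1h2bg: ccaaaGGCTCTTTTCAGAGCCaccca
Hist1h4i: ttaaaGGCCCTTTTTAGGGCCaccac
Hist2h2aa1: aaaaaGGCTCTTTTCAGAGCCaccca
Hist2h4: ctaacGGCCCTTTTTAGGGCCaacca
Hist1h3e: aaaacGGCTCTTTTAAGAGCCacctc
The length that followed the element was not set by the search, and it differed between members. Annotated transcripts ran on for 840 bases after it in Hist1h1c, 155 in Hist1h2bg, 330 in Hist1h4i, 1257 in Hist2h4 and 369 in Hist1h3e, but for 35 in Hist2h2aa1. The stem-loop search found no match in the annotated transcripts of Hist2h2be (2620 nt) and Hist1h2bc (1156 nt).

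Promoter sequences from RefSeq (GRCm38.p6, 250 bases before to 50 after the start) were matched for 37 of the 41 members. The 4 printed belong to members that moved in opposite directions between Treg- and Tconv-phagocytic macrophages under IFN-γ: Hist1h2bg (chr13:23571150-23571449, plus strand), Hist1h3d (chr13:23575513-23575812, plus strand) and Hist1h2ac (chr13:23683910-23684209, minus strand) were lower, and Hist1h1c (chr13:23738557-23738856, plus strand) was higher. Capitals mark matches on either strand to the octamer ATTTGCAT, the TATA box TATAAA and the CCAAT box CCAAT.
Hist1h2bg: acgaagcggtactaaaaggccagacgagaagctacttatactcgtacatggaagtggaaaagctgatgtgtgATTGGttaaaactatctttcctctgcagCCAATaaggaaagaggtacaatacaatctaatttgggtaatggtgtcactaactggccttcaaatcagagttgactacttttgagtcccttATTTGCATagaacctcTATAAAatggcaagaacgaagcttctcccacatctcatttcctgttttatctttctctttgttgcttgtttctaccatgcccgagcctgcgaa
Hist1h3d: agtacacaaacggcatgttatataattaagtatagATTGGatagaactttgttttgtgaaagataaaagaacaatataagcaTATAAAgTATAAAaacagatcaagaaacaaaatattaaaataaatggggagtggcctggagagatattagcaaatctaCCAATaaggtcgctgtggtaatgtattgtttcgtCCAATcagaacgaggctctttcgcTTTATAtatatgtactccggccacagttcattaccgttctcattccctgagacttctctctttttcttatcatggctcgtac
Hist1h2ac: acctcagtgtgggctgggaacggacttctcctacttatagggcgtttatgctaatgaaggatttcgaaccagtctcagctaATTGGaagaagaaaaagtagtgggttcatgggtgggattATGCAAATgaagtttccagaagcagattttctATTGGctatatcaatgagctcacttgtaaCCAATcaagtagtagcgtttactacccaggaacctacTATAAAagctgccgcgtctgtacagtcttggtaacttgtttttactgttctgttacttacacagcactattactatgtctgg
Hist1h1c: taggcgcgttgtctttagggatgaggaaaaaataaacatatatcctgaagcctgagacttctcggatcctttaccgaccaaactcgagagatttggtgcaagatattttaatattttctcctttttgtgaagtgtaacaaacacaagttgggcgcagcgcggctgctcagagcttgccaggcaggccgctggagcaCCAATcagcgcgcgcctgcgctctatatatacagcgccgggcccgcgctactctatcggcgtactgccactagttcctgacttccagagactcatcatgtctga
The Hist1h2ac window also holds the annotated start of Hist1h2bc on the other strand, and the Hist1h2bg window that of Hist1h2ae. Neither Hist1h2bc nor Hist1h2ae was called between these groups, so the letters in these windows do not belong to lowered genes alone. The octamer was present in Hist1h2bg and Hist1h2ac and without a match in Hist1h3d and Hist1h1c. The CCAAT box was in all 4 printed promoters. The exact letters TATAAA were in the 3 that were lower, while Hist1h1c holds the run TATATATA, which this search does not count. Any part of these letters in the differences between groups was not tested. The 4 genes were picked after their values were seen, and not all lower members are printed. Hist1h3d and Hist1h2ac passed the TPM threshold only through IFN-γ libraries, and no promoter was matched for Hist2h2be. The octamer was found in 7 of 37 member promoters (18.9%) and in 1.74% of 32851 promoters of the same length, the TATA box in 21 members (56.8%) and 13.6% of all, and the CCAAT box in 31 members (83.8%) and 37.4% of all. The E2F-type letters TTTNGCGC were found in 7 members (18.9%) and 1.38% of all, in none of the 4 printed. The letters TTCNNNGAA, the form of an interferon-gamma activated site, were in 8.3% of all promoters and in 0 of 37 member promoters, which says only that these letters are not in these windows.

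The files hold no read counts. From the steps of low TPM values, the 12 IFN-γ libraries had an estimated 10.8% to 23.6% of the depth of the deepest library, the 12 IL-10 libraries 49.3% to 91.3% and the 4 M0 libraries 68.2% to 100%. Within IFN-γ, Treg-phagocytic libraries (10.8% to 19.6%) were all shallower than Tconv-phagocytic ones (20.2% to 23.6%). Non-phagocytic libraries were at 18.3% to 22.0%. Estimated fragments and values of 0 set side by side below are not corrected for this. For a transcript of 450 nt, 1 fragment was worth 1.16 to 2.49 TPM in IFN-γ libraries and 0.307 to 0.608 TPM in IL-10 libraries. At that length a single fragment could pass the threshold of 1 TPM under IFN-γ only. Shorter transcripts could do so under IL-10 too: Hist1h4k (312 nt) was at 1.38 TPM in IL-10 Treg-phagocytic Ax647-2 on an estimated 1.2 fragments. Of the 41 members, 12 passed through IFN-γ libraries alone, and such a member had to be higher there. Macrophage markers were at 16549 to 21327 summed TPM over 9 genes in all libraries. Summed TPM of 10 T cell markers (Cd3e and Trac among them, none at 0 in all libraries of a group) was 277 to 503 in IFN-γ, 53.9 to 130 in IL-10 and 40.8 to 89.5 in M0 libraries, and their part in the differences between cytokines below was not tested.

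Few members carried most of the signal. The summed level of the 41 members was 464 ± 10.3 TPM (SD, n = 4) in M0, 504 ± 14.2 TPM to 518 ± 13 TPM in the 3 IL-10 groups, 651 ± 30.7 TPM in IFN-γ non-phagocytic, 657 ± 39.2 TPM in IFN-γ Tconv-phagocytic and 588 ± 32.8 TPM in IFN-γ Treg-phagocytic macrophages. Hist1h1c, which encodes linker histone H1.2, made up 44% to 56.8% of this sum in each group. Only 9 members averaged at least 5 TPM over all libraries and 8 reached 1 TPM in all 28. The other 32 averaged under 5 TPM, with a median of 61.1 estimated fragments over all libraries together. Just inside the threshold lay Hist1h2bb, Hist1h2br and Hist1h1d, each with 4 libraries at or above 1 TPM and all 4 under IFN-γ, with means over all libraries of 0.337, 0.403 and 0.451 TPM. Just outside lay Hist1h2be, Hist1h4f and Hist1h2aj, each with 3 libraries and with means of 0.468, 0.357 and 0.304 TPM.

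**Figure D1:**
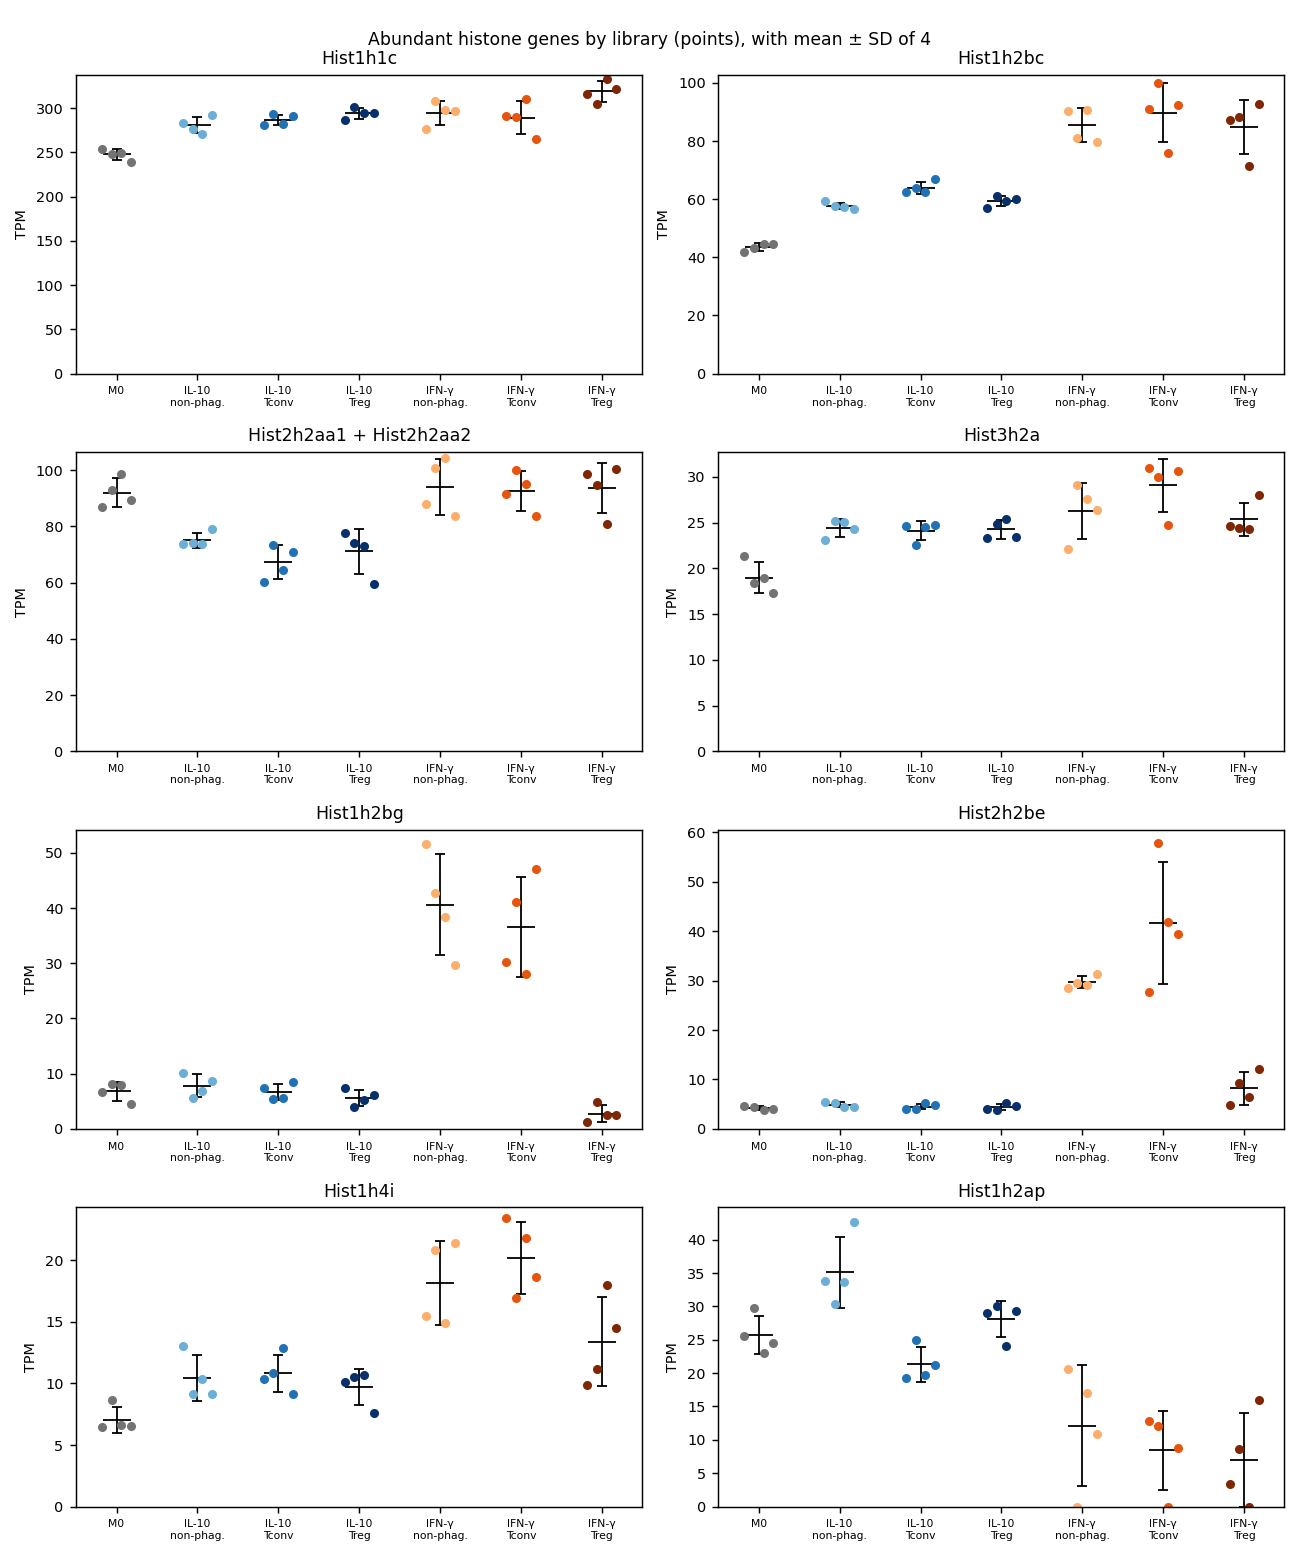
TPM (vertical axis, linear, from 0) of the abundant histone genes in each of the 28 libraries (points), by group, with the mean and SD of 4; the near-identical Hist2h2aa1 and Hist2h2aa2 are summed. Hist1h2bg and Hist2h2be are high in IFN-γ non-phagocytic and Tconv-phagocytic libraries and low in IFN-γ Treg-phagocytic ones, while Hist1h2bc stays at 71.3 TPM or above in all IFN-γ libraries.

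The H2B genes Hist1h2bg and Hist2h2be were high in 2 of the 3 IFN-γ groups and low elsewhere. Hist1h2bg (ENSMUSG00000058385, chr13:23571396-23572013, 1 exon), which encodes core histone H2B, was at 51.66, 42.82, 38.44 and 29.63 TPM in IFN-γ non-phagocytic libraries, at 30.25, 41.19, 28.02 and 47.09 TPM in Tconv-phagocytic ones and at 1.32, 4.8, 2.51 and 2.52 TPM in Treg-phagocytic ones. All 4 Treg-phagocytic libraries were below all others under IFN-γ. It was at 4.51 to 8.14 TPM in M0 and at 3.9 to 10.2 TPM over the 12 IL-10 libraries. Only 1 of the 4 IFN-γ Treg-phagocytic libraries reached the bottom of the M0 range. The estimated fragments behind the IFN-γ values were 199 in the 4 non-phagocytic, 204 in the 4 Tconv-phagocytic and 10.4 in the 4 Treg-phagocytic libraries. Of its transcript's 50-base windows, 49.7% occur in another gene, so its values depend in part on how shared reads were split.

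Hist2h2be (ENSMUSG00000068854, chr3:96221119-96223738), also an H2B gene, was at 28.57, 29.56, 29.13 and 31.38 TPM in IFN-γ non-phagocytic, 27.62, 57.81, 41.78 and 39.48 TPM in Tconv-phagocytic and 4.74, 9.33, 6.5 and 12.18 TPM in Treg-phagocytic libraries. Again the Treg-phagocytic libraries did not overlap the other 2 groups. It was at 3.79 to 4.72 TPM in M0 and 3.9 to 5.51 TPM in IL-10 libraries, so 3 of 4 IFN-γ Treg-phagocytic libraries lay above every IL-10 and M0 library. This gene had an estimated 874, 1399 and 190 fragments in the non-phagocytic, Tconv-phagocytic and Treg-phagocytic groups, and it shares no stretch of 50 bases with another gene's transcripts.

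These differences were tested with limma on log2(scaled TPM + 1) in 1 model of all libraries, with Benjamini-Hochberg adjustment over 13631 genes and a call at an adjusted p under 0.05. Between Treg- and Tconv-phagocytic macrophages under IFN-γ, the log2 level of Hist1h2bg fell by 3.31 ± 0.247 (SE) and that of Hist2h2be fell by 2.16 ± 0.194 (adjusted p = 2.08e-10 and 3.88e-09 with limma). Against non-phagocytic macrophages of the same cytokine they fell by 3.51 ± 0.247 and 1.78 ± 0.194 (limma, adjusted p = 1.11e-10 and 1.35e-07). Both comparisons share the Treg-phagocytic libraries. In a model of only the 2 groups compared, which uses the wider spread of the IFN-γ libraries, the Treg against Tconv adjusted p-values were 0.00103 and 0.00439. Under IL-10 the same contrast gave -0.23 ± 0.247 for Hist1h2bg and -0.01 ± 0.194 for Hist2h2be (limma, adjusted p = 1 for both), with intervals of 2 SE from -0.72 to 0.27 and from -0.40 to 0.38. The difference between the cytokines in this contrast was itself past the threshold, at -3.09 ± 0.350 for Hist1h2bg and -2.15 ± 0.274 for Hist2h2be (limma, adjusted p = 5.67e-07 and 2.93e-06).

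Hist1h2bc, Hist3h2a and Hist1h1c did not share that fall, and Hist1h4i fell less. Hist1h2bc (ENSMUSG00000018102, chr13:23684199-23692908), another H2B gene, was at 79.8 to 90.5 TPM in IFN-γ non-phagocytic, 75.7 to 100 TPM in Tconv-phagocytic and 71.3 to 92.6 TPM in Treg-phagocytic libraries, so the 3 groups overlapped. Its Treg against Tconv difference was 0.01 ± 0.076 (limma, adjusted p = 0.93), with an interval of 2 SE from -0.14 to 0.17 on the log2 scale. Hist3h2a (ENSMUSG00000078851, chr11:58954685-58956830), an H2A gene that lies within Trim17 on the same strand, was at 24.3 to 28.1 TPM in Treg-phagocytic and 24.8 to 31 TPM in Tconv-phagocytic libraries under IFN-γ, a log2 difference of -0.10 ± 0.085 (limma, adjusted p = 0.412). Hist1h1c (ENSMUSG00000036181, chr13:23738808-23740367) rose: it was at 316.36, 304.96, 333.19 and 321.89 TPM in Treg-phagocytic against 290.68, 289.63, 310.67 and 265.18 TPM in Tconv-phagocytic libraries. On the unscaled values 1 Tconv-phagocytic library lies above the lowest Treg-phagocytic one; on the scaled values the groups did not overlap. The log2 difference was 0.24 ± 0.040 (limma, adjusted p = 5e-05; 0.0307 in the model of the 2 groups alone). Hist1h4i (ENSMUSG00000060639, chr13:22040636-22041362), which encodes H4, was at 9.89, 11.21, 17.97 and 14.49 TPM in Treg-phagocytic against 23.43, 16.92, 21.81 and 18.69 TPM in Tconv-phagocytic libraries. The groups overlapped in 1 library, and its fall of 0.50 ± 0.167 passed in the model of all libraries (limma, adjusted p = 0.0249) but not in the model of the 2 groups alone (adjusted p = 0.157).

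Near-copies limit most what can be said of 3 abundant H2A genes. Smaller shares of 50-base windows occur in another gene for Hist1h2bg (49.7%), Hist3h2a (31.5%), Hist1h2bc (30.1%), Hist1h4i (28.9%) and Hist1h1c (8.5%). Hist2h2aa1 and Hist2h2aa2 lie on chromosome 3 (chr3:96245497-96246082 and chr3:96239749-96240276), and 89.4% and 100% of their transcripts' 50-base windows occur in another gene, so the share given to each varied widely: Hist2h2aa1 was at 12.8 to 72.3 TPM over all libraries. Their sum was steadier, at 92 ± 5.17 TPM (SD, n = 4) in M0, 67.2 ± 6.06 TPM to 75.1 ± 2.68 TPM in the IL-10 groups and 92.6 ± 6.96 TPM to 94.1 ± 9.91 TPM in the IFN-γ groups. The sum showed a Treg against Tconv log2 difference of 0.11 ± 0.085 under IFN-γ (limma, adjusted p = 0.37). Hist1h2ap (chr13:21833026-21833507, 93.1% shared) was at 19.3 to 42.7 TPM in every M0 and IL-10 library, but was listed at 0 in 1 library of each IFN-γ group and reached 20.7 TPM in those groups. A sum of all 15 Hist1h2a genes still depends on how reads are split, since TPM is corrected for transcript length, which differs among them. The sum was 26.9 ± 3.04 TPM in M0 and 23.1 ± 2.7 TPM to 36.8 ± 5.63 TPM in IL-10 groups. In IFN-γ non-phagocytic, Tconv-phagocytic and Treg-phagocytic macrophages it was 21.8 ± 2.99, 18 ± 6.7 and 11.8 ± 10.6 TPM. Under IFN-γ it ranged from 3.66 to 27.3 TPM in Treg-phagocytic and from 17.8 to 24.4 TPM in non-phagocytic libraries, so 1 Treg-phagocytic library lay above all non-phagocytic ones. That difference passed in the model of all libraries (-1.13 ± 0.327, limma, adjusted p = 0.0121) but not in a model of the 2 groups alone (adjusted p = 0.239). The difference from Tconv-phagocytic macrophages passed in neither (-0.74 ± 0.327, limma, adjusted p = 0.087 and 0.441).

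Over all 41 members, 10 were called between Treg- and Tconv-phagocytic macrophages under IFN-γ, 1 higher and 9 lower, where 30.8% of all tested genes were called and 17.0% were called lower. The members' share of lower calls was close to that of all genes, so the count is not a result about histone genes. The median log2 difference was -0.32 over members and 0.01 over all tested genes. It was -0.18 over the 8 members at 1 TPM or more in all 28 libraries, which did not need IFN-γ to pass. In the model of the 2 groups alone, 4 members were lower and 1 higher, against 7.83% of all genes lower. The groups did not overlap and Treg-phagocytic was lower for 5 members, against 11.0% of all genes. Against non-phagocytic macrophages 10 members were called, 9 of them lower (26.5% of all genes called, 15.4% lower), and 5 in the model of those groups alone, all lower (5.90%). There 6 members had no overlap and were lower, against 9.36% of all genes. Tconv-phagocytic and non-phagocytic macrophages under IFN-γ differed in 0 members by limma, with 4 at an unadjusted p under 0.05, where 0.902% of all genes were called. Under IL-10, 0 members were called between Treg- and Tconv-phagocytic macrophages (1 at an unadjusted p under 0.05; 0.778% of all genes), and the difference between cytokines in that contrast was called for 5 members, 4 of them lower (16.6% of all genes, 10.3% lower).

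**Figure D2:**
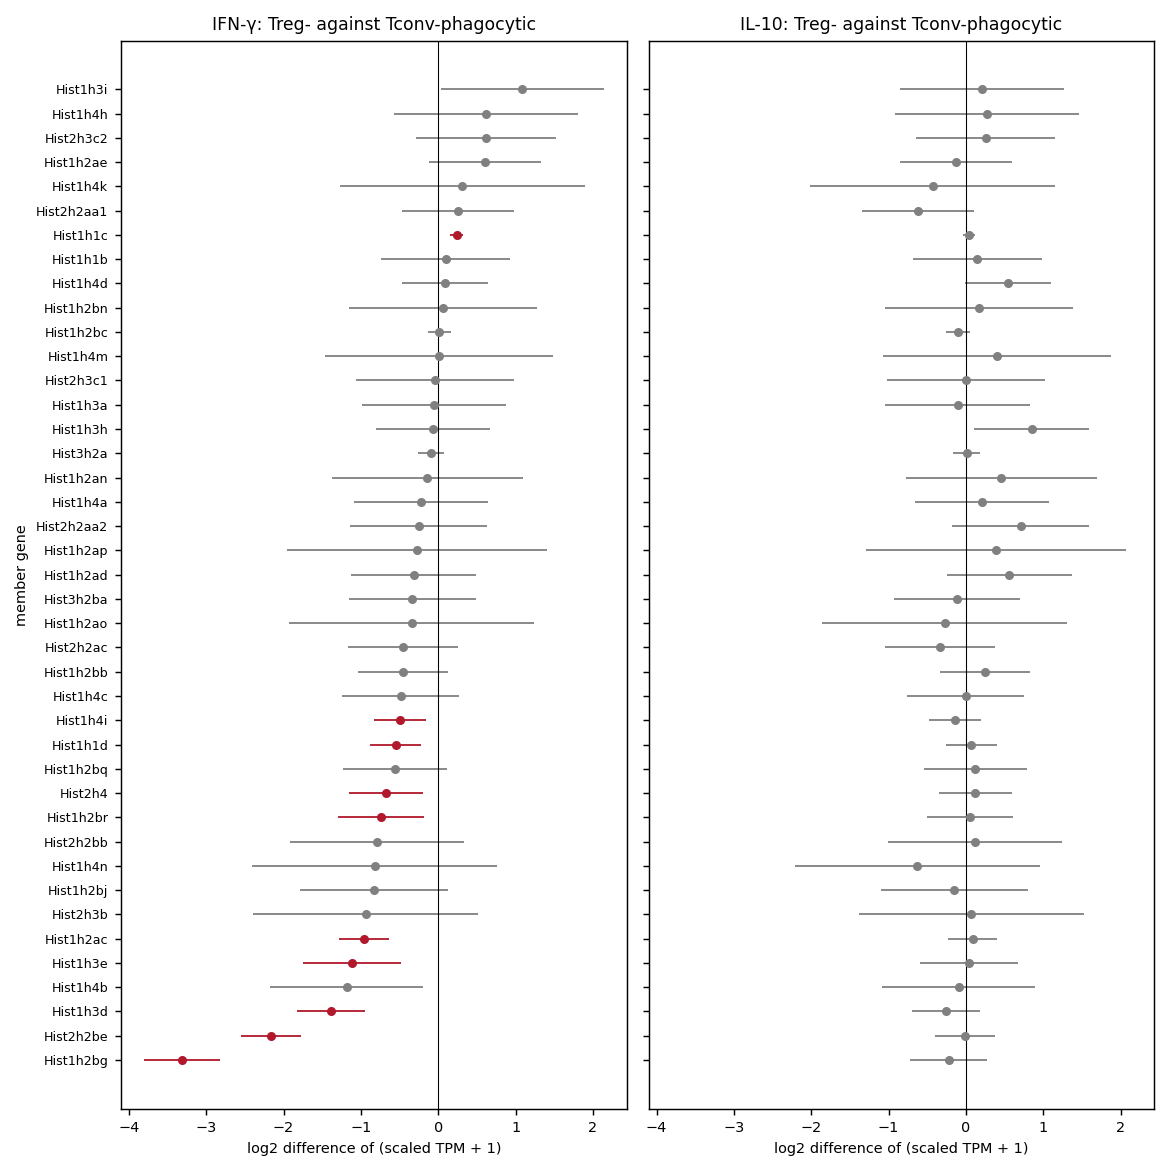
Log2 difference of scaled TPM + 1 (horizontal axis) between Treg- and Tconv-phagocytic macrophages for the 41 members (vertical axis, in the order of the IFN-γ values), under IFN-γ (left) and IL-10 (right); bars are 2 SE and red marks an adjusted p under 0.05. Under IFN-γ 10 members are red, with Hist1h2bg and Hist2h2be farthest to the left; under IL-10 none is.

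Outside the 9 abundant members, the members that were lower in IFN-γ Treg-phagocytic macrophages are named here after their values were seen. They averaged 0.337 to 0.785 TPM over all libraries. Their passing the threshold rested mostly on the groups where they were higher, so their values are a description. Hist1h3d, an H3 gene, was at 1.46, 4.16, 1.67 and 2.82 TPM in Tconv-phagocytic and at 0.31, 0.56, 0 and 0.41 TPM in Treg-phagocytic libraries, with an estimated 36.3 against 3.1 fragments. Hist1h2ac, an H2A gene, was at 0.82, 2.04, 1.4 and 0.84 TPM against 0.15, 0, 0.33 and 0.17 TPM, with 40.3 against 4.1 fragments. Neither gene's groups overlapped between Treg and Tconv. Hist1h1d, a linker histone gene, was at 0.51 to 1.15 TPM against 0.08 to 0.59 TPM and overlapped, with 91 against 23.7 fragments. The H3 gene Hist1h3e was at 1.28 to 4.49 TPM against 0 to 1.02 TPM, without overlap. The H4 gene Hist2h4 was at 0 to 2.03 TPM against 0 to 0.45 TPM and the H2B gene Hist1h2br at 0 to 1.7 TPM against 0 to 0.48 TPM, both with overlap. Against non-phagocytic macrophages Hist1h2bj and Hist1h2bb were listed at 0 in all 4 Treg-phagocytic libraries, and a fitted difference for them is no bound. Hist1h2bq, another H2B gene called lower there, was at 0 to 2.3 TPM in non-phagocytic and 0 to 1.13 TPM in Treg-phagocytic libraries. Near-copies limit some of these genes too: 73.4%, 88.5% and 97.3% of the 50-base windows of Hist1h3e, Hist1h2br and Hist1h2bq occur in another gene.

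Between the cytokines, most of the abundant members were higher under IFN-γ in non-phagocytic macrophages. Of the 8 members at 1 TPM or more in all 28 libraries, which did not need IFN-γ to pass, 7 were called higher than under IL-10 (27.1% of all genes) and 7 higher than in M0 (27.9%), with median log2 differences of 0.92 and 1.08. Hist2h2aa2 was the member not called in either. Its near-copy Hist2h2aa1 is among the 7 in both, but its call against M0 was lost in 10 of 19 alternatives, 6 of which left out 1 library (M0 replicate 2, 3 or 4, or IFN-γ non-phagocytic replicate 1, 2 or 4). The summed pair was at 94.1 TPM against 92 TPM in M0, a log2 difference of 0.30 ± 0.085 after scaling (limma, adjusted p = 0.00449). Hist2h2be rose by 2.63 ± 0.194 and Hist1h2bg by 2.51 ± 0.247 against IL-10 (limma, adjusted p = 1.33e-11 and 3.21e-09), with no overlap between groups. Hist1h4i was at 14.9 to 21.4 TPM against 9.18 to 13.1 TPM and rose by 1.01 ± 0.167 (limma, adjusted p = 1.32e-05). Hist1h2bc was at 79.8 to 90.5 TPM against 56.6 to 59.2 TPM and rose by 0.84 ± 0.076 (limma, adjusted p = 6.98e-10), and the Hist2h2aa sum rose by 0.60 ± 0.085 (limma, adjusted p = 1.48e-06). The rises of Hist3h2a (0.37 ± 0.085) and Hist1h1c (0.35 ± 0.040) were smaller, and neither passed without scaling factors. The median of all genes was -0.02 with the factors and -0.26 without them, and the 2 differences were then 0.10 and 0.07 with adjusted p-values of 0.322 and 0.147 by limma.

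Over all 41 members, 15 were called between IFN-γ and IL-10 non-phagocytic macrophages and all 15 were higher (55.2% of all genes called). Against M0 17 were called, all higher (56.3% of all genes called). Since 12 members passed only through IFN-γ libraries, these counts support nothing about the family. Hist1h1c, Hist3h2a and Hist1h2bc were also higher in IL-10 non-phagocytic macrophages than in M0, by 0.16 ± 0.040, 0.33 ± 0.085 and 0.38 ± 0.076 (limma, adjusted p = 0.00429, 0.00647 and 0.000548), the only 3 members called there (13.3% of all genes called, 7.55% higher). The Hist2h2aa sum went the other way, at -0.30 ± 0.085 (limma, adjusted p = 0.0157). Within IL-10, Hist1h1c was the only member called in Treg-phagocytic against non-phagocytic macrophages (0.15 ± 0.040, limma, adjusted p = 0.0252; 4.57% of all genes called), which did not pass without scaling (0.07, adjusted p = 0.465), and 0 members were called in Tconv-phagocytic against non-phagocytic macrophages by limma (4 at an unadjusted p under 0.05; 1.80% of all genes), although a model of those 2 groups alone called 4.

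By mean level, the order of the groups for Hist1h2bg was IFN-γ non-phagocytic (40.6 ± 9.17 TPM, SD, n = 4) and Tconv-phagocytic (36.6 ± 9.04), then IL-10 non-phagocytic (7.83 ± 2.04), M0 (6.81 ± 1.68), IL-10 Tconv-phagocytic (6.74 ± 1.43), IL-10 Treg-phagocytic (5.66 ± 1.47) and IFN-γ Treg-phagocytic (2.79 ± 1.46). The first 2 did not differ beyond their spread, and neither did neighbours among the M0 and IL-10 groups. The lowest 2 groups overlapped, and their difference was not tested. For Hist2h2be the order was IFN-γ Tconv-phagocytic (41.7 ± 12.4 TPM) and non-phagocytic (29.7 ± 1.22), IFN-γ Treg-phagocytic (8.19 ± 3.26), and then the IL-10 groups and M0 between 4.26 and 4.92 TPM. Hist1h2bc was at 84.9 ± 9.35 to 89.8 ± 10.2 TPM under IFN-γ, 57.6 ± 1.14 to 63.9 ± 2.03 TPM under IL-10 and 43.5 ± 1.34 TPM in M0. Within IL-10 its 4 Tconv-phagocytic libraries (62.3 to 66.8 TPM) lay above all 4 non-phagocytic ones (56.6 to 59.2 TPM). That difference (0.23) was called in a model of the 2 groups alone (limma, adjusted p = 0.00395) and not in the model of all libraries (adjusted p = 0.179).

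Among genes that act on histone mRNA, calls went in both directions. Of 21 tested genes of histone pre-mRNA processing and transcription, 2 were higher and 4 lower between Treg- and Tconv-phagocytic macrophages under IFN-γ (median log2 difference -0.21). Of all genes 30.8% were called there, 17.0% lower. Against non-phagocytic macrophages 2 of the 21 were higher and 7 lower (median -0.27), where 26.5% of all genes were called, 15.4% lower. Slbp, which binds the stem-loop, was at 19.8 to 22.1 TPM in Treg-phagocytic and 17.4 to 26.9 TPM in Tconv-phagocytic libraries, a log2 difference of 0.01 ± 0.099 (limma, adjusted p = 0.945). Lsm10, a U7 snRNP subunit, was higher, at 34.5 ± 5.45 against 27.9 ± 1.72 TPM (SD, n = 4; 0.38 ± 0.096, limma, adjusted p = 0.00375), while Lsm11, its partner, showed -0.14 ± 0.169 (limma, adjusted p = 0.589). Npat, the activator of histone genes at the G1 to S transition, showed -0.26 ± 0.152 against Tconv-phagocytic (limma, adjusted p = 0.211) and fell by 0.61 ± 0.152 against non-phagocytic macrophages (limma, adjusted p = 0.00391). Casp8ap2, a cofactor of histone transcription, showed -0.35 ± 0.318 (limma, adjusted p = 0.441) and fell by 0.95 ± 0.318 (limma, adjusted p = 0.0284), with 3.66 to 19 TPM among the 4 non-phagocytic libraries. Cdk2, which phosphorylates Npat, fell by 0.58 ± 0.096 against Tconv-phagocytic macrophages (limma, adjusted p = 4.08e-05).

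Markers of the cell cycle moved in both directions. Between Treg- and Tconv-phagocytic macrophages under IFN-γ, 30.8% of all tested genes were called and 17.0% were called lower. Among 28 tested genes of S phase and DNA replication, 3 were higher and 2 lower in Treg- than in Tconv-phagocytic macrophages under IFN-γ (median -0.05), with Dtl lower by 1.03 ± 0.143 in log2 units (limma, adjusted p = 3.59e-06). Of 19 tested genes of G2 and mitosis 4 were higher and 5 lower (median 0.01), with Plk1 higher by 0.72 ± 0.220 and Bub1b lower by 0.89 ± 0.256 in log2 units (limma, adjusted p = 0.0141 and 0.00992). Replication-independent histones, which are made outside S phase and carry poly(A) tails, gave 4 higher and 2 lower of 10, with H2afz higher by 0.23 ± 0.046 and Cenpa, the centromeric H3, lower by 0.59 ± 0.099 in log2 units (limma, adjusted p = 0.000344 and 4.91e-05). Histone chaperones gave 0 higher and 3 lower of 17, among them Hjurp, the chaperone of Cenpa, with a fall of 1.04 ± 0.138 (limma, adjusted p = 1.95e-06). Of 6 cyclin-dependent kinase inhibitors only Cdkn1b was called, with a fall of 0.31 ± 0.057 (limma, adjusted p = 0.000137). In the same contrast summed macrophage markers were at 20804 to 21327 against 16549 to 18881 TPM, and summed T cell markers at 343 to 503 against 313 to 406 TPM; their part in the histone differences was not tested.

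Between IFN-γ and IL-10 non-phagocytic macrophages, 13 of 19 G2 and mitosis genes and 9 of 28 S phase genes were higher and 0 and 2 lower (medians 0.89 and 0.23). Of all tested genes 27.1% were called higher there, and the S phase share was close to that. All 10 T cell markers were higher there as well, with a median log2 difference of 2.53. Birc5, a mitotic gene, rose by 1.70 ± 0.215 and Cenpa by 1.82 ± 0.099 (limma, adjusted p = 2.37e-07 and 3.24e-14). Summed over their lists, fibroblast markers were at 2.49 to 5.4 against 66.4 to 72.9 TPM, B cell markers were at 5.76 to 10.5 against 1.34 to 2.83 TPM and regulatory T cell markers were at 42.5 to 72.8 against 9.19 to 10.2 TPM in the IFN-γ and IL-10 non-phagocytic libraries. The part of these markers' source cells in the histone rise was not tested.

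**Figure D3:**
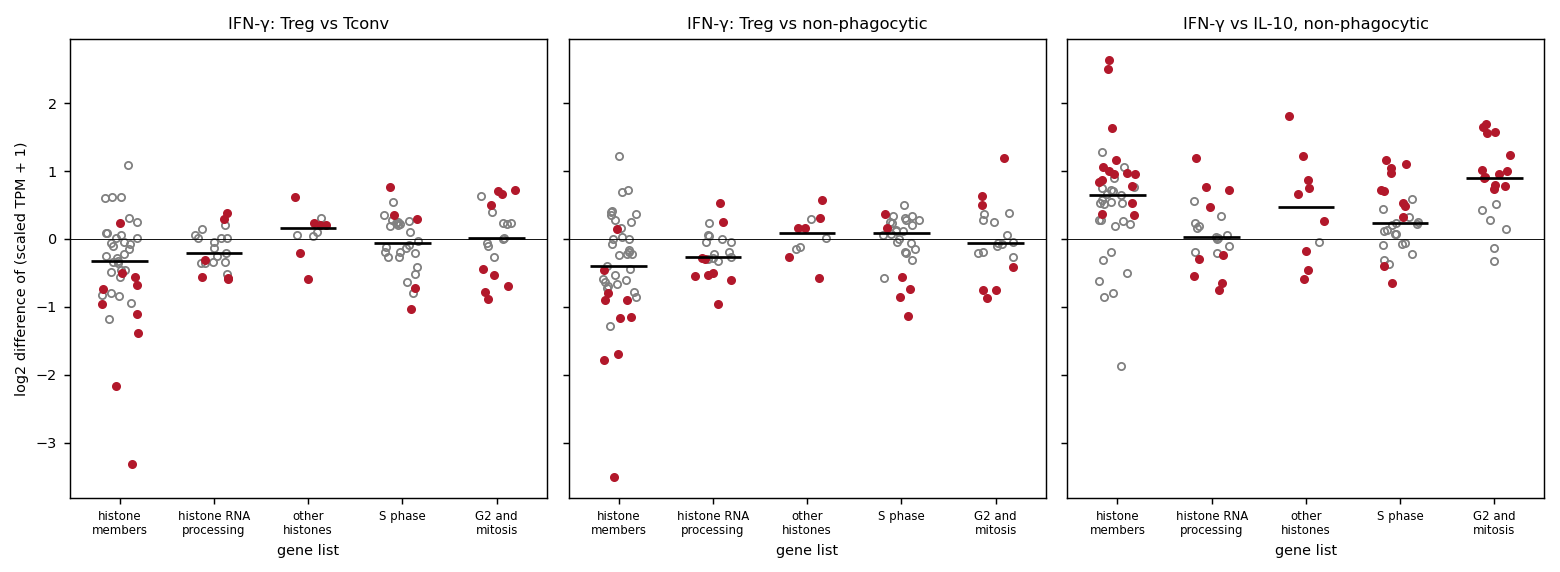
Log2 difference of scaled TPM + 1 (vertical axis) of single genes (points, red past an adjusted p under 0.05) for the histone members and 4 gene lists, in 3 comparisons; black lines are medians. Histone members reach -3.31 and -3.51 in the IFN-γ Treg-phagocytic comparisons, beyond any gene of the 4 lists, and their medians are -0.32, -0.40 and 0.65. Since 12 members passed the TPM threshold only through IFN-γ libraries, these medians are a description. For the 8 members at 1 TPM or more in all 28 libraries the medians are -0.18, -0.11 and 0.92.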

How the data were processed

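The deposited files hold TPM per gene, which the authors made with RSEM and STAR on mm10, per the submitters' processing notes; versions and annotation are not given in the sources used here. Per the labels' protocols, poly(A) RNA went into a strand-specific kit. Symbols were matched for 55141 gene IDs and not for 346. Gene models were GENCODE vM21 of GRCm38. The 41 members and all gene lists were chosen with earlier results of these data known.

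TPM were divided by a trimmed-mean scaling factor (30% of ratios and 5% of levels trimmed), and log2(value + 1) was fitted for 13631 genes that reached 1 TPM in 4 or more libraries, using limma 3.58.1 (R 4.3.3, trend) with 7 groups and Benjamini-Hochberg adjustment. Fold changes are on that scale and understate low genes. The fit was tested on simulated data. Estimated fragments came from 14527 single-transcript genes of 500 to 2000 nt, where 89.5% to 92.7% of low values lay within 0.15 of a whole fragment (30% by chance). These estimates carry counting error and also depend on the fitted value of 1 fragment, on the annotated transcript length and on how shared reads were split. Total depth is unknown. Genes named with full values were the 8 members of highest mean TPM and, per comparison, up to 3 rises and 3 falls of at least 5 TPM. Alternatives were other scalings, pseudocounts, filters, models and single libraries left out. No library was left out, and 0 of 378 library pairs held identical values.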

Additional observations from a re-analysis of the deposited data

Results flagged for a closer look

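Members whose Treg against Tconv difference was itself different between IFN-γ and IL-10 (a test of the difference of differences, limma) were Hist1h2bg (-3.09 in log2 units), Hist2h2be (-2.15), Hist1h3d (-1.13), Hist1h2ac (-1.05) and Hist1h1c (0.20). Hist1h3d and Hist1h2ac passed the TPM threshold only through IFN-γ libraries. That of Hist1h1c did not pass without scaling (0.11, adjusted p = 0.246 with limma), with a correction for GC content and length or with the replicate block. That of Hist1h3d did not pass with a pseudocount of 0.1 (-1.80, adjusted p = 0.18) and that of Hist1h2ac with the block (-1.05, 0.0591).

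A library stood apart from the other 3 of its group by Dixon's test in 7 of 70 tests (9 named members and the summed level in 7 groups; chance gives about 1 in 20). Hist2h2aa1 was at 47.31 TPM in M0 replicate 1 (others 23.9 to 27.17) and 61.12 TPM in IL-10 Tconv-phagocytic BV421-2 (others 22.4 to 27.24), and both belong to the near-identical pair. Hist3h2a was at 24.78 TPM in IFN-γ Tconv-phagocytic Ax647-1 (others 29.96 to 30.96), 28.07 TPM in IFN-γ Treg-phagocytic BV421-2 (others 24.29 to 24.62) and 22.51 TPM in IL-10 Tconv-phagocytic BV421-2 (others 24.54 to 24.75). Hist1h4i was at 8.62 TPM in M0 replicate 2 (others 6.43 to 6.61). The summed level of the members was 715.77 TPM in IFN-γ Tconv-phagocytic BV421-2 (others 631.44 to 641.54).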

How the results depend on the processing

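Of 61 calls of single members, 29 held under every alternative run and 0 reversed direction. The falls of Hist1h2bg and Hist2h2be held under all 21 alternatives for Treg against Tconv (log2 differences from -3.69 to -2.42 and from -2.38 to -1.78). Counts of called members moved more. For Treg against Tconv under IFN-γ, 10 became 5 with a variance weight per group, with only the groups compared and with either dye as a term, 4 with a filter of 5 TPM (11 members tested) and 3 with a replicate block, by either numbering. Over all tested genes, same-numbered libraries did not deviate together (correlations from -0.07 to 0.09). No label says whether they share a culture or animal, and these correlations cannot settle that for single genes. For Treg-phagocytic against non-phagocytic under IFN-γ, 10 became 4 with the weight, 3 with the filter, 5 with only the groups compared and 3 with the replicate block. For IFN-γ Tconv-phagocytic against non-phagocytic, leaving out 1 library gave 0 to 1 (1 without Tconv-phagocytic Ax647-2). For IL-10 Treg-phagocytic against non-phagocytic, 1 became 0 without scaling, 2 with only the groups compared, 0 with the block, and 0 to 1 with 1 library left out (0 without non-phagocytic replicate 1, 2 or 3 or Treg-phagocytic Ax647-2, BV421-1 or BV421-2). For IL-10 Tconv-phagocytic against non-phagocytic, 0 became 2, 4 and 1 with the weight, only the groups compared and the block. The filter of 5 TPM took 15 to 7 (IFN-γ against IL-10), 17 to 7 (IFN-γ against M0) and 5 to 3 (the difference between cytokines, also 3 with the block); it tests fewer members. IL-10 against M0 went from 3 to 5 with only the groups compared. In models of only the groups compared, chosen after seeing the data, the summed Hist1h2a genes lost their call for Treg-phagocytic against non-phagocytic under IFN-γ and gained 3, for IL-10 Tconv-phagocytic against non-phagocytic (-0.56, adjusted p = 0.0245 with limma), IFN-γ against IL-10 (-0.45, 0.016) and IL-10 against M0 (0.42, 0.0246); the summed Hist2h2aa pair kept its 3 calls. The cause was not tested. Leaving out 1 library gave 8 to 10, 8 to 11, 14 to 19, 13 to 19, 3 to 4 and 5 to 7 for the counts of 10, 10, 15, 17, 3 and 5. The shallow IFN-γ libraries limit all members below 5 TPM.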

Other observations

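Of the 9 members that were lower in IFN-γ Treg- than in Tconv-phagocytic macrophages, 4 lie in a stretch of 23.8 kb on chromosome 13 (mm10, chr13:23553262-23577011), which holds 7 histone genes, 6 of them members. The stretch was picked after the values were seen, and no test was made of it. In order along the chromosome, the log2 differences were -0.55 for Hist1h1d, -1.11 for Hist1h3e, 0.60 for Hist1h2ae (not called), -3.31 for Hist1h2bg, -0.32 for Hist1h2ad (not called) and -1.39 for Hist1h3d. The mean level of Hist1h2ae, which starts close to Hist1h2bg on the other strand, was 1.04 TPM in Treg-phagocytic and 0.27 TPM in Tconv-phagocytic macrophages, opposite in sign to Hist1h2bg. These means rested on an estimated 5.4 and 2 fragments. The libraries were at 0, 0, 1.78 and 2.39 TPM against 0, 0, 1.09 and 0 TPM, so the groups overlapped.

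Of the 41 members, 14 overlap another annotated gene, 13 on the opposite strand and 5 on the same. The overlapping genes on the same strand include Trim17 (Hist3h2a) and Gm20634 (Hist2h2aa1 and Hist2h3c1). Whether the counting used strand is not given in the sources used here.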
